A study of Mus musculus with 16 samples.

Results

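The genes that mouse cells use to show peptides on MHC class I molecules were followed, through 9 members of 18193 genes measured, across 16 arrays of cultured spermatogonial stem cells. The members were chosen by name: the heavy chains H2-K1 and H2-D1, their partner B2m, the transporter genes Tap1 and Tap2, the loading factor Tapbp, and the immunoproteasome subunits Psmb8, Psmb9 and Psmb10. Every probe set annotated to a member gene was taken, which gave 29 of 45037 non-control probe sets. Of these, 26 were annotated to 1 member gene alone, and 3 were shared by several genes and counted apart. The cultures had been started from germ cells enriched for Thy1, on the genetic background that the labels spell C57BL\6, and the cells received siRNA for 30 h. Of the 4 groups, with 4 arrays each, 3 received siRNA against Pou3f1, Bcl6b or Etv5, and the fourth, labelled Negative control, received a negative siRNA. All 4 groups were kept without serum in a defined medium that held 20 ng/ml of GDNF, 150 ng/ml of GFRα1 and FGF2 (1 ng/ml). The labels call the reduction transient, and siRNA lowers an mRNA without removing its gene. Nothing in the labels tells whether the 4 replicates of a group were grown apart, and the p-values then cover only a spread between samples that may be technical.

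MHC class I molecules carry short peptides from inside the cell to its surface. The proteasome cuts proteins into peptides, and in cells that have met interferon the subunits made from Psmb8, Psmb9 and Psmb10 replace the constitutive subunits made from Psmb5, Psmb6 and Psmb7. Tap1 and Tap2 form the pump that moves peptides into the endoplasmic reticulum, Tapbp (tapasin) holds the pump beside an empty heavy chain, and the loaded heavy chain leaves with B2m, its light chain. Interferons raise the transcription of most of these genes, and they also induce antiviral effectors such as Ifit1, Rsad2 and Oas1a, which is why the class I genes were set beside a list of antiviral genes here.

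On chromosome 17 of the GRCm38.p6 assembly, as annotated by RefSeq, lie 7 of the members, most of them inside the major histocompatibility complex. Psmb9 (34182030 to 34187330), Tap1 (34187556 to 34197225), Psmb8 (34198195 to 34201454) and Tap2 (34204479 to 34216321) stand next to each other in a stretch of 34.3 kb. Psmb9 and Tap1 are transcribed away from each other, with 225 bases between their starts. H2-K1 (33996012 to 34000619), Tapbp (33919478 to 33929290) and H2-D1 (35263094 to 35267497) are on the same chromosome, B2m is on chromosome 2 (122147687 to 122153082) and Psmb10 is on chromosome 8 (105935728 to 105938392). The 250 bases before the starts of H2-D1, B2m and Tap1 are shown because they represent a heavy chain, the light chain and the transporter, and those of Ifit1 are shown as an antiviral gene for comparison. They were taken from RefSeq, GRCm38.p6, each on the strand of its gene. The windows lie at chr17:35262844-35263093 for H2-D1 and chr2:122147437-122147686 for B2m. The Tap1 window is chr17:34187306-34187555, and the Ifit1 window is chr19:34640639-34640888, all on the plus strand. Capitals mark 2 motifs searched on both strands: the core AANNGAAA of sites for interferon regulatory factors, and GGANTNNCC, a form of the kappaB site.
H2-D1: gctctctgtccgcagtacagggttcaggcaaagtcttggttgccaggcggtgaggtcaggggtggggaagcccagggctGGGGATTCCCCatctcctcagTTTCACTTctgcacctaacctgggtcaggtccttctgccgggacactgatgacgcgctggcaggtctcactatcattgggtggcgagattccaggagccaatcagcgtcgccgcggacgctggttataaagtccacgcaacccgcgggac
B2m: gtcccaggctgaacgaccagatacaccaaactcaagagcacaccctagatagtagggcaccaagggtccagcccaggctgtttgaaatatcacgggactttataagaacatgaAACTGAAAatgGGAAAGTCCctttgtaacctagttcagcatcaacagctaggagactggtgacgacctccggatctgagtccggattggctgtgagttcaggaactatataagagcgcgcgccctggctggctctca
Tap1: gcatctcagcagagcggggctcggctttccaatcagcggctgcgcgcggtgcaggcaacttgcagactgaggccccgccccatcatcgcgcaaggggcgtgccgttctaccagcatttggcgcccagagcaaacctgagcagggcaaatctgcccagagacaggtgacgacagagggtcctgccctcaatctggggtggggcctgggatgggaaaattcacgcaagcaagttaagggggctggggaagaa
Ifit1: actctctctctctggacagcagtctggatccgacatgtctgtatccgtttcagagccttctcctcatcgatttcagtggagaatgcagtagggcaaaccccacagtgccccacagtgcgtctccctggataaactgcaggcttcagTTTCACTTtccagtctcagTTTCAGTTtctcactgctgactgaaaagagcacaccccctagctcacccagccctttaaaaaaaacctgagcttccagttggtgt
In a search of the full windows (250 bases before and 50 after the start), H2-D1 and H2-K1 each held overlapping kappaB matches followed by the interferon regulatory factor core. In the H2-D1 window the kappaB matches began 171 and 169 bases before the start and the core 150 bases before it. In the first H2-K1 window they began 111, 109 and 90 bases before it. The core of B2m began 137 bases before the start and its kappaB match 126 bases before it. Ifit1 had the core at 104 and 85 bases before the start and no kappaB match. The window of Psmb6, a constitutive subunit, held the core 70 bases before the start. Neither motif was in the windows of Tap1, Psmb8, Psmb9, Tapbp or Psmb10, and Tap2 had no entry in the table of windows. Over 32851 mouse windows of the same length, 23.9% held the core and 13% the kappaB form. A match describes letters and not an occupied site.

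The 3 siRNA targets were lower in their own knockdown, by limma with Benjamini-Hochberg adjustment over the 22836 probe sets tested: Pou3f1 fell by 0.68 on the log2 scale, Bcl6b by 1.01 and Etv5 by 1.49 (adjusted p = 0.0023, 4.4e-04 and 0.0027 in that order). Bcl6b also fell in the Etv5 knockdown (adjusted p = 2.1e-04). The array of Bcl6b knockdown replicate 1 stood apart. Correlated with each other array in turn, it averaged r = 0.975, and the remaining 15 arrays averaged 0.996 to 0.997. Its 3′ probe sets for Actb exceeded the 5′ ones by 3.08 on the log2 scale (0.62 to 0.76 on the others), and for Gapdh the figure was 1.03 (-0.53 to -0.45 on the others). Results are therefore given for 16 arrays and again for 15, without that array, where the call or the value differs.

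All 9 member genes had at least 1 probe set bright enough to test, meaning above the array's own median on at least 4 arrays. Of the 29 probe sets, 21 passed, with intensities from 24.8 to 26525, and 8 stayed dim at 2.48 to 13.3. Where a gene had several probe sets, its brightest single-gene one stands for it in counts of genes. Levels of different probe sets cannot be set against each other on this platform, so only differences between groups are compared.

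After Pou3f1 knockdown all 9 class I genes had a difference below 0 from the control, and the differences were largest for Tap1, Tap2 and Psmb10. With 16 arrays, Tap2 and Psmb10 fell (2 of 9 genes, with 0.74% of all tested probe sets called lower). With 15 arrays Tap1, Tap2, Tapbp, Psmb10 and H2-K1 fell, 5 of 9 against 5.27% of all probe sets. The 16-array calls were fragile: both were lost when any of 9 single arrays (Bcl6b knockdown 3, Etv5 knockdown 1 or 3, control 1, 2 or 3, Pou3f1 knockdown 2, 3 or 4) was left out. Starting from the 15 arrays and leaving out a second one, a choice made after seeing the data, Tap1, Tap2 and Psmb10 passed in all 15 fits. The median difference of the 9 genes was -0.27 on the log2 scale, against -0.02 over all tested probe sets, of which 57.4% had a difference below 0. In bulk RNA such a difference could be fewer expressing cells or less RNA per cell, and these cannot be told apart. In 6 of the 9 genes every Pou3f1 knockdown array read below every control array, which 9.8% of all tested probe sets did. The plot of intensities by array shows these values.

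**Figure D1:**
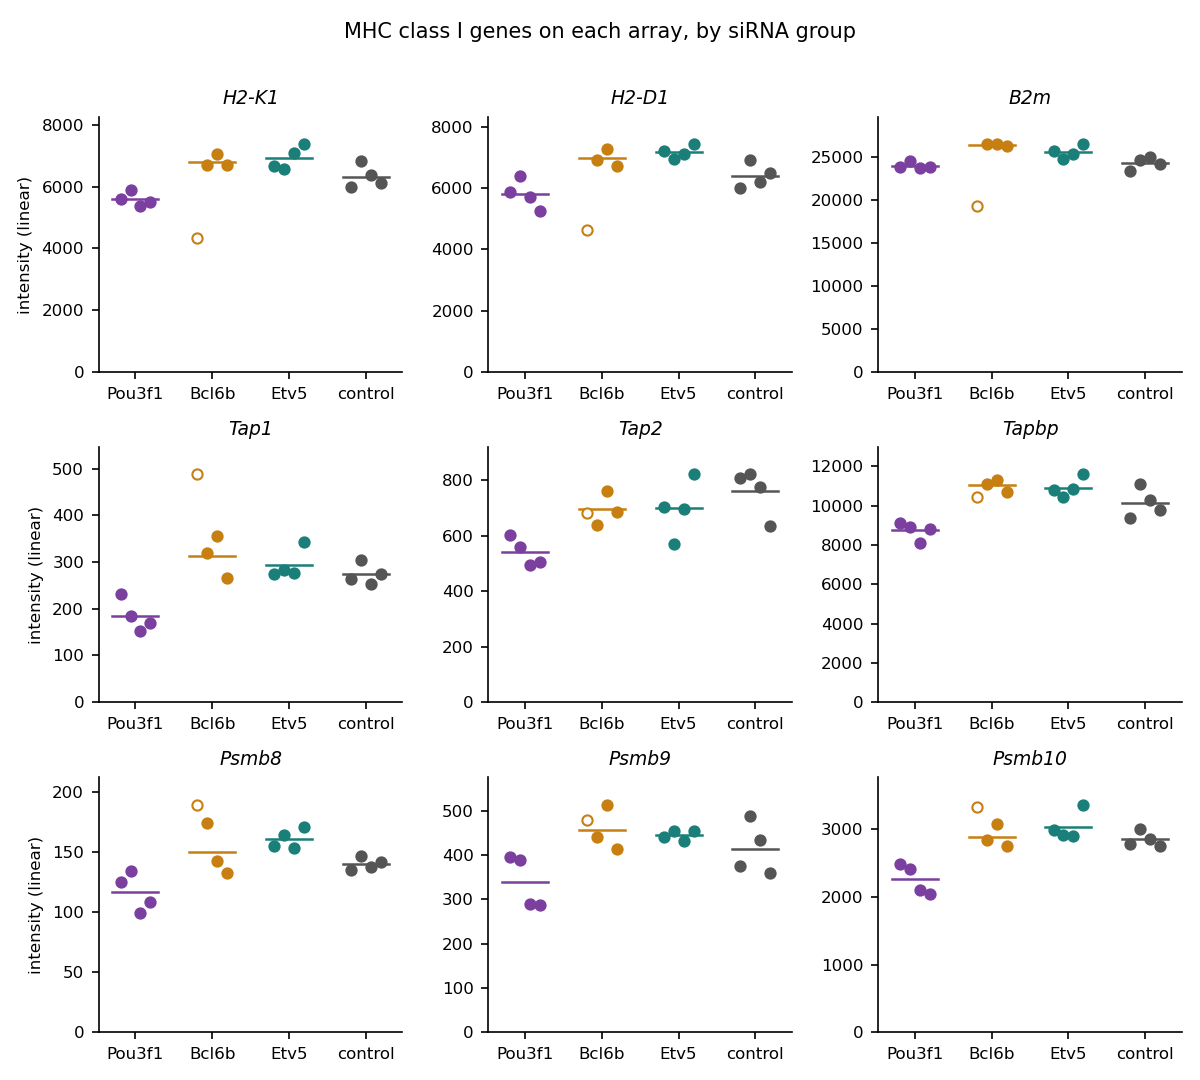
Linear intensity (y axis, from 0) of the brightest probe set of each of the 9 class I genes on every array, with Pou3f1, Bcl6b and Etv5 knockdown left of the Negative control (x axis). Points are arrays, bars are means, and the open point is Bcl6b knockdown replicate 1, which the bar leaves out. Tap1 reads 152 to 231 in Pou3f1 knockdown and 253 to 304 in the control, without overlap, whereas B2m reads 23722 to 24589 and 23459 to 24994.

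Tap1, which makes the first chain of the peptide transporter, had the largest difference. Its intensities were 231, 185, 152 and 169 in Pou3f1 knockdown. The Bcl6b knockdown arrays read 487, 319, 356 and 266 (replicate 1 first) and the Etv5 knockdown arrays 275, 283, 276 and 342, against 263, 304, 253 and 275 in the control. Every Pou3f1 knockdown array was below every array of the other groups. The difference from the control was -0.58 ± 0.16 (SE) on the log2 scale, a fold of 0.668, and it passed the test with 15 arrays (adjusted p = 0.00588) but not with 16 (0.121). Against Etv5 knockdown it was -0.68 (adjusted p = 0.0804 with 16 arrays and 0.00291 with 15). Against Bcl6b knockdown it was -0.93 (0.00473), and -0.77 without replicate 1 (0.00127). The other 3 Tap1 probe sets were dim.

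Tap2, the second chain of the transporter, had intensities of 602, 558, 495 and 505 in Pou3f1 knockdown. It read 681, 640, 760 and 685 in Bcl6b knockdown and 704, 571, 696 and 820 in Etv5 knockdown, against 806, 820, 775 and 636 in the control. The Pou3f1 knockdown arrays lay below all Bcl6b knockdown and control arrays and overlapped those of Etv5 knockdown. The difference from the control was -0.49 ± 0.11 (SE; adjusted p = 0.042 with 16 arrays and 0.00735 with 15). Tap2 was the one member whose difference was below 0 in the other 2 knockdowns as well, at -0.13 in each, and neither passed (adjusted p = 0.462 for Bcl6b and 0.902 for Etv5). Its differences between Pou3f1 knockdown and Bcl6b or Etv5 knockdown, both -0.36, did not pass with either set of arrays (adjusted p from 0.0515 to 0.226).

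Tapbp brings the transporter and the empty heavy chain together. Its brighter probe set read 9111, 8932, 8090 and 8836 in Pou3f1 knockdown. It read 10434, 11119, 11291 and 10711 in Bcl6b knockdown and 10805, 10433, 10872 and 11592 in Etv5 knockdown, against 9368, 11115, 10316 and 9761 in the control. The Pou3f1 knockdown arrays were the lowest, all below every other array. Tapbp was lower by 0.32 on the log2 scale than in both other knockdowns (adjusted p = 0.00412 against Bcl6b and 0.00883 against Etv5 with 16 arrays), and it fell by 0.21 relative to the control, which passed with 15 arrays (0.0144) but not with 16 (0.0822). The second Tapbp probe set read 24.8 on the first Bcl6b knockdown array, while the 3 others of that group had 728 to 805. Its Pou3f1 minus Bcl6b difference was 0.80 with that array and -0.43 without it (adjusted p = 0.534 and 0.0056).

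The 3 immunoproteasome genes had similar differences from the control in Pou3f1 knockdown. Psmb10 was the one member that passed against all 3 other groups with both 16 and 15 arrays, with 2486, 2407, 2101 and 2043 in Pou3f1 knockdown. It had 3317, 2839, 3067 and 2740 in Bcl6b knockdown and 2980, 2904, 2888 and 3354 in Etv5 knockdown, against 2773, 2995, 2854 and 2747 in the control. No Pou3f1 knockdown array reached the lowest array of another group. It was lower by 0.34 ± 0.08 (SE) than in the control (adjusted p = 0.0439 with 16 arrays and 0.00365 with 15), by 0.41 than in Bcl6b knockdown (0.00675 and 0.00391) and by 0.43 than in Etv5 knockdown (0.0124 and 8.8e-04). Psmb8, whose product is the chymotrypsin-like subunit, read 125, 134, 99.1 and 109 in Pou3f1 knockdown. The other groups read 189, 174, 142 and 133 (Bcl6b knockdown) and 155, 164, 153 and 171 (Etv5 knockdown), against 135, 146, 137 and 142 in the control. The Pou3f1 arrays lay below all control and Etv5 knockdown arrays, and 1 of them overlapped Bcl6b knockdown. The difference from the control, -0.27 ± 0.11, did not pass (adjusted p = 0.42 with 16 arrays and 0.09 with 15), whereas those from Bcl6b knockdown (-0.45, adjusted p = 0.039) and, with 15 arrays, from Etv5 knockdown (-0.47, 0.00905) did. Psmb9 replaces the caspase-like subunit. It read 394, 389, 289 and 287 in Pou3f1 knockdown, 478, 441, 513 and 413 in Bcl6b knockdown and 441, 454, 432 and 454 in Etv5 knockdown, against 375, 489, 433 and 359 in the control. In the control 2 arrays lay within the Pou3f1 knockdown range. The difference from the control was -0.29 ± 0.12 (adjusted p = 0.419 and, with 15 arrays, 0.133), and Psmb9 was lower than in Bcl6b knockdown by 0.45 (0.0485 and 0.0369).

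The heavy chains had smaller differences. H2-K1 read 5607, 5880, 5385 and 5495 in Pou3f1 knockdown. It read 4323, 6687, 7056 and 6684 in Bcl6b knockdown and 6671, 6565, 7097 and 7369 in Etv5 knockdown, against 5990, 6817, 6363 and 6099 in the control. Apart from Bcl6b knockdown replicate 1, which was the lowest of all arrays, every other array lay above the Pou3f1 knockdown arrays. The difference from the control was -0.17 (adjusted p = 0.741 with 16 arrays, SE 0.12, and 0.0241 with 15, SE 0.05). H2-D1 read 5884, 6397, 5694 and 5267 in Pou3f1 knockdown. It read 4636, 6926, 7270 and 6716 in Bcl6b knockdown and 7207, 6957, 7107 and 7432 in Etv5 knockdown, against 5992, 6930, 6198 and 6480 in the control. Pou3f1 knockdown and control overlapped, and the difference of -0.14 did not pass with either set of arrays (0.82 and 0.117). Set against Etv5 knockdown, both heavy chains were lower by 0.31 in Pou3f1 knockdown, which passed with 15 arrays (adjusted p = 7.5e-04 for H2-K1 and 0.00287 for H2-D1) and not with 16 (0.407 and 0.358).

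B2m, the light chain of class I molecules, differed little between Pou3f1 knockdown and control. It read 23824, 24589, 23722 and 23885 in Pou3f1 knockdown. It read 19281, 26525, 26523 and 26282 in Bcl6b knockdown and 25739, 24804, 25422 and 26515 in Etv5 knockdown, against 23459, 24687, 24994 and 24198 in the control. Pou3f1 knockdown and control overlapped, and the difference was -0.02 (SE 0.08 with 16 arrays and 0.03 with 15, adjusted p = 1 and 0.709). Without replicate 1, B2m was higher in Bcl6b knockdown than in the control by 0.12 (adjusted p = 0.0133), and lower in Pou3f1 than in Bcl6b knockdown by 0.14 (0.0056). With all 16 arrays these 2 differences were 0.01 and -0.03. The second B2m probe set read 20708 to 22324 in Pou3f1 knockdown, 22717 to 23742 in Etv5 knockdown and 21474 to 22884 in the control. In Bcl6b knockdown it read 12078 on replicate 1 and 22869 to 23645 on the other arrays, which overlapped the control. With 15 arrays its difference between Bcl6b knockdown and control was not called. It was called lower in Pou3f1 than in Etv5 knockdown, unlike the brighter probe set.

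The heavy chains were read by 11 tested single-gene probe sets, all but 1 of the kind whose probes may also bind related transcripts (suffix _x_at), so they are not independent readings of 2 genes. All 11 had a difference below 0 in Pou3f1 knockdown against the control, from -0.23 to -0.10, as did 57.4% of all tested probe sets. Of these, 0 passed with 16 arrays (3 at an unadjusted p under 0.05) and 6 with 15, where 5.27% of all tested probe sets were called lower. In Etv5 knockdown all 11 were above 0 relative to the control, from 0.12 to 0.28, as were 43.7% of all tested probe sets. Of these, 0 passed with 16 arrays (2 at an unadjusted p under 0.05) and 6 with 15, where 3.82% of all tested probe sets were called higher. The 6 were 5 probe sets of H2-D1 and 1 of H2-K1, with differences of 0.15 to 0.28, and neither gene's brightest probe set was among them (adjusted p = 0.0708 for H2-D1 and 0.0896 for H2-K1). In 7 of the 11, every Etv5 knockdown array was above every control array, against 6.75% of all tested probe sets. The probe set shared by H2-K1 and H2-D1 read 3121, 3240, 2806 and 2984 in Pou3f1 knockdown, against 3198, 3576, 3245 and 3364 in the control. The groups overlapped by 1 array, and the difference was -0.14 (adjusted p = 0.108 with 15 arrays, and not passed with 16 either).

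Other class I heavy chains in the same chromosomal region are mostly read by shared probe sets. Of 12 probe sets shared by several class I genes, 3 included a member and 7 were tested. The clearest fall was in a probe set shared by H2-T9, H2-T22 and H2-T10, nonclassical class I genes. It read 4184, 3947, 3640 and 3948 in Pou3f1 knockdown. The other groups read 5056 to 5828 (Bcl6b knockdown) and 4855 to 5556 (Etv5 knockdown), against 4813, 4979, 5042 and 4934 in the control. The Pou3f1 knockdown arrays lay below all others. The difference from the control was -0.33 (adjusted p = 0.00545 with 16 arrays and 6.2e-04 with 15). A second probe set of the same 3 genes fell too, with 160 to 198 in Pou3f1 knockdown and 247 to 248 in the control (-0.42, adjusted p = 0.0289). The probe set shared by H2-T23 and a pseudogene was lower than in Bcl6b knockdown by 0.66 (0.0205) and that of H2-Q6 and H2-Q8 by 0.54 (0.0134), but neither passed against the control (0.678 and 0.714). Of the 28 other class I and class I-like genes listed, 14 had probe sets of their own and 6 were tested. None of the 6 passed limma's test in Pou3f1 knockdown against the control with 16 or 15 arrays (1 at an unadjusted p under 0.05 with 16), and their median difference was -0.11. Of all tested probe sets 0.74% and 5.27% were called lower there, so 0 of 6 is near the background.

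**Figure D2:**
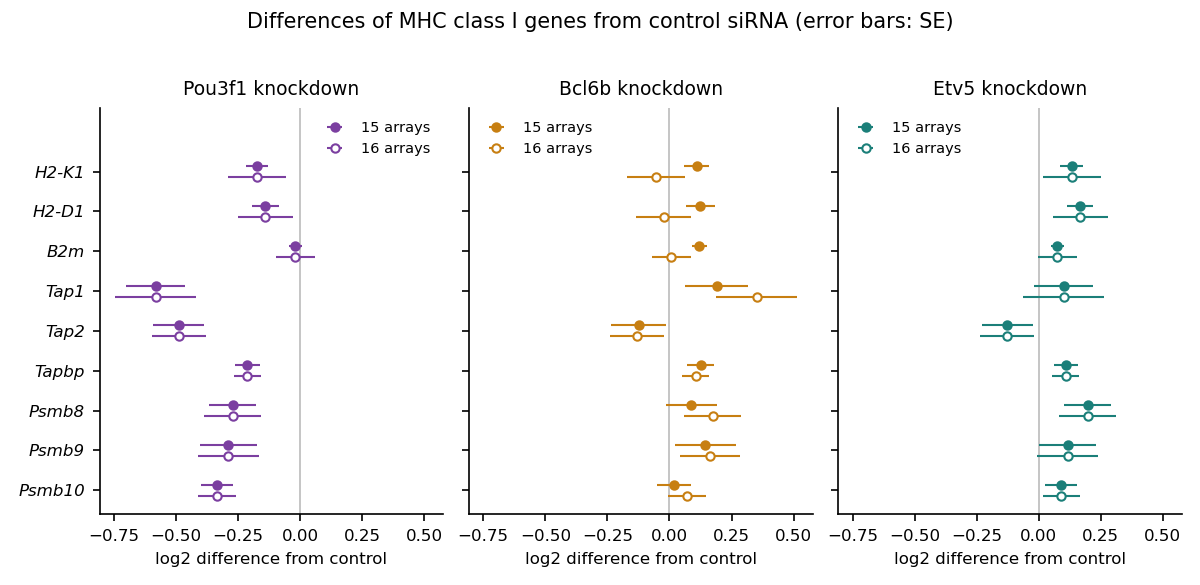
Difference from the Negative control on the log2 scale (x axis) for the 9 class I genes (y axis) in Pou3f1, Bcl6b and Etv5 knockdown. Filled points use 15 arrays and open points 16, and error bars are SE. In Pou3f1 knockdown the points run from -0.58 for Tap1 to -0.02 for B2m, while in the other 2 knockdowns only Tap2 stays below 0 with 15 arrays.

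Bcl6b and Etv5 knockdown gave small differences from the control in the class I genes, mostly above 0. In Bcl6b knockdown 0 of 9 genes passed limma's test with 16 arrays (Tap1 alone at an unadjusted p under 0.05, with 3.98% of all tested probe sets called in either direction). With 15 arrays B2m alone passed, where 7.0% of probe sets were called higher. The median difference was 0.07, or 0.12 with 15 arrays. In Etv5 knockdown 0 of 9 passed with 16 or 15 arrays (0 at an unadjusted p under 0.05 with 16, background 1.26% and 7.26%), and the median difference was 0.11. Between Bcl6b and Etv5 knockdown 0 of 9 passed with either set (0 at an unadjusted p under 0.05 with 16, background 1.03% and 3.7%), and the median difference was -0.02.

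On Bcl6b knockdown replicate 1 the members read in different directions. The mean of the 2 heavy chains was -0.50 on the log2 scale relative to the control mean there, and B2m was at -0.34. Tap1 (487) and Psmb8 (189) had their highest intensity of the 16 arrays on it. Tap2, at 681, lay below 3 of the 4 control arrays, and Tapbp, at 10434, was the lowest array of its group. The means of the transport and loading genes (0.24) and of the immunoproteasome genes (0.29) on this array therefore cover members that differed among themselves. The other 3 arrays of the group read 0.08 to 0.17 for the heavy chains and 0.11 to 0.12 for B2m. The array's 3′ to 5′ values given above moved with these readings, and their part in them was not tested.

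Pou3f1 knockdown also differed from the other 2 knockdowns. Against Bcl6b knockdown 5 genes were lower with 16 arrays (Tap1, Tapbp, Psmb8, Psmb9 and Psmb10, background 4.02%). With 15 arrays 8 of 9 were lower, the exception being Tap2 (background 6.81%). Against Etv5 knockdown Tapbp and Psmb10 were lower with 16 arrays (background 0.609%). With 15 arrays 6 of 9 were lower, the exceptions being B2m, Tap2 and Psmb9 (background 2.89%). The second, less bright B2m probe set was lower in that fit. All 9 differences were below 0 in both comparisons, with a median of -0.36 in each, and 50.5% (Bcl6b) and 50.8% (Etv5) of all tested probe sets were below 0. Without any overlap between arrays, 8 of 9 genes were lower than in Etv5 knockdown (5.61% of all probe sets). Against Bcl6b knockdown it was 5 of 9 (8.09%), or 8 of 9 without replicate 1 (11.6%). The 3 comparisons of Pou3f1 knockdown use the same 4 arrays, so they are not independent.

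The antiviral list held 41 genes, of which 36 had a probe set and 34 were tested. In Pou3f1 knockdown 23 of the 34 fell relative to the control with 16 arrays and 32 with 15 (0.74% and 5.27% of all tested probe sets). The median of the 34 was -0.59, and 31 had no overlap between groups, against 9.8% of all tested probe sets. Rsad2, an interferon-induced enzyme that limits viral replication, read 228, 191, 183 and 181 in Pou3f1 knockdown, against 482, 778, 623 and 487 in the control (-1.57, adjusted p = 0.00145). Oas1a and Oasl1, of the oligoadenylate synthetase family, fell by 1.08 and 1.01 (0.00143 and 0.0131), and Usp18, which restrains interferon signalling, fell by 0.96 (0.00604). Ifit1, which binds foreign RNA, read 1615, 1194, 1213 and 1225, against 2274, 3038, 2436 and 2053 in the control (-0.90, 0.00783). In these antiviral genes too, no Pou3f1 knockdown array reached a control array. Class I genes thus had differences of the same sign as the antiviral genes in Pou3f1 knockdown and of smaller size: the 9 members ran from -0.58 to -0.02 and the 34 antiviral genes from -1.57 to -0.04. The difference between the 2 lists was not tested.

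In Bcl6b knockdown 9 of 34 antiviral genes rose relative to the control with 16 arrays and 19 with 15 (2.51% and 7.0% of all tested probe sets), with a median of 0.39. Among them Ifih1, a sensor of viral RNA, rose by 0.70 (adjusted p = 0.0257), Oas1a by 0.69 (0.0191), Dhx58 by 0.63 (0.0376) and Irf7, a transcription factor of the interferon response, by 0.60 (0.0173). The class I median there was 0.07, and B2m was the one member that passed, with 15 arrays. In Etv5 knockdown the medians were 0.11 for both lists. None of the antiviral genes passed limma's test with 16 arrays (4 at an unadjusted p under 0.05, background 1.26% called in either direction). With 15 arrays Ifit2 alone rose (0.28, adjusted p = 0.021), where 3.82% of all tested probe sets were called higher. The comparisons with the control share the control arrays.

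**Figure D3:**
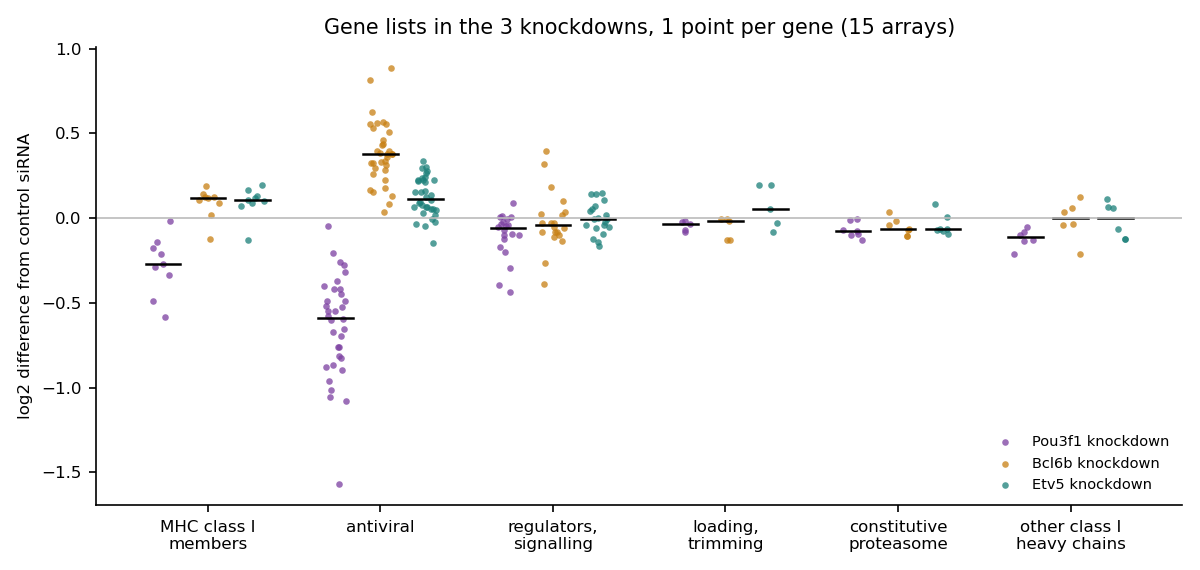
Difference from the Negative control on the log2 scale (y axis) for each tested gene of 6 lists (x axis), without Bcl6b knockdown replicate 1. Points are genes, short black lines are medians, and colours mark Pou3f1, Bcl6b and Etv5 knockdown from left to right within a list. In Pou3f1 knockdown the class I median is -0.27 and the antiviral median -0.59.

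Array by array, the class I and antiviral means kept the 4 Pou3f1 knockdown arrays apart from the rest. The antiviral mean, on the log2 scale relative to the control mean, was -0.45, -0.64, -0.77 and -0.67 on these arrays, against -0.07, 0.17, 0.03 and -0.12 on the control arrays. The mean of the 9 class I genes was -0.16, -0.18, -0.40 and -0.37, against -0.06, 0.12, 0.00 and -0.06. Replicates 3 and 4 of Pou3f1 knockdown were the lowest in both measures. Because these 4 arrays form a cluster of their own, the relation of each member to the antiviral mean was not computed across all arrays. Over the other 11 arrays, leaving out Bcl6b knockdown replicate 1, 9 relations between a member's level and the antiviral mean were computed. Of these, 4 passed a permutation test with 100000 permutations after Benjamini-Hochberg adjustment over the 9. They were Tap1 (Pearson's r = 0.76, p = 0.0074, and Spearman's rho = 0.72, p = 0.0162), B2m (0.75, p = 0.00747, and 0.81, p = 0.00384), Tapbp (0.71, p = 0.0135, and 0.76, p = 0.0085) and Psmb9 (0.71, p = 0.0141, and 0.70, p = 0.021). Each had an adjusted permutation p of 0.0317 for r, and for rho it was 0.0472 for Tap1 and Psmb9, 0.0346 for B2m and 0.0382 for Tapbp. The 11 arrays came from groups with different antiviral means, so these p-values also take in differences between groups. How many of all tested genes would pass the same test was not computed. The 4 of 9 can therefore not be read against a background share. The antiviral medians were 0.45 in Bcl6b knockdown without replicate 1, 0.13 in Etv5 knockdown and -0.02 in the control. Without the 2 arrays farthest from the antiviral median, r was 0.81 for Tap1, 0.66 for B2m, 0.67 for Tapbp and 0.78 for Psmb9. After group means were removed, r was 0.72 for Tap1, 0.64 for Tapbp and 0.76 for Psmb9, and 0.35 for B2m. It was 0.72 for Psmb8, 0.66 for Psmb10, 0.52 for H2-D1, 0.48 for H2-K1 and 0.21 for Tap2. The other 5 did not pass: H2-K1 and H2-D1 had r of 0.56 each (adjusted permutation p = 0.112), Psmb8 0.49 (0.169), Psmb10 0.37 (0.291) and Tap2 -0.10 (0.767), and their rho were 0.57, 0.55, 0.55, 0.45 and -0.04 (adjusted p from 0.113 to 0.925). With Bcl6b knockdown replicate 1 included, r was 0.10 for B2m, 0.01 for H2-K1 and 0.05 for H2-D1, whereas Tap1, Tapbp and Psmb9 had 0.63, 0.66 and 0.73. The B2m relation thus depended on leaving that array out, and it was also weaker with group means removed (0.35).

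**Figure D4:**
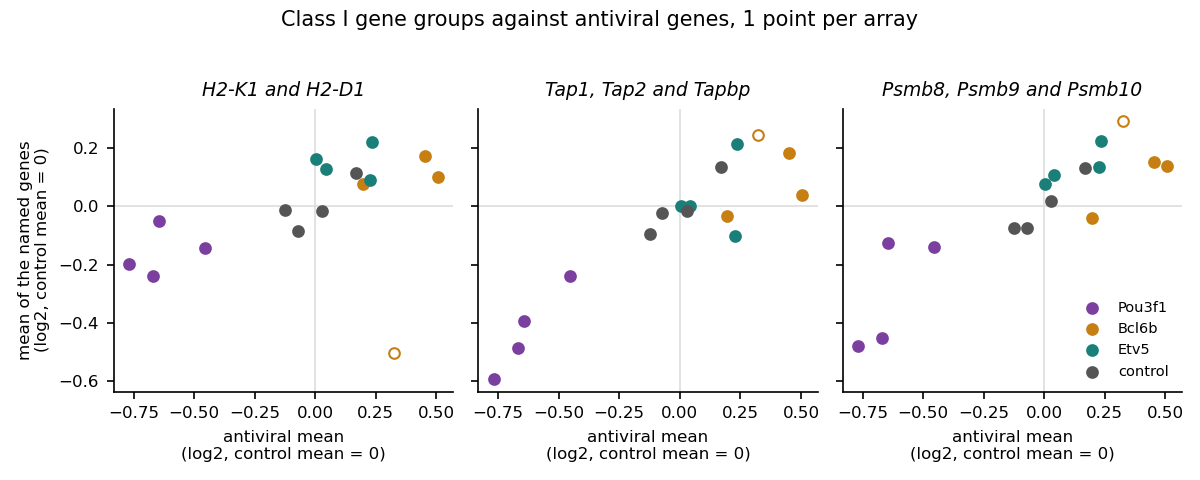
Mean of the heavy chains, of the transport and loading genes, and of the immunoproteasome genes (y axes) against the mean of 34 antiviral genes (x axes), both on the log2 scale with the control mean at 0. Points are arrays, coloured by group, and the open point is Bcl6b knockdown replicate 1. The 4 Pou3f1 knockdown arrays lie between -0.77 and -0.45 on the antiviral axis, apart from all others, and the open point lies at -0.50 for the heavy chains.

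The likeness of other genes to the class I mean was taken over 15 arrays, including the 4 Pou3f1 knockdown arrays, which stand apart in the class I mean, and the part of that gap in it was not tested. Among 11136 tested genes outside the members, the highest Pearson's r belonged to Bst2 (0.98), Lgals3bp (0.97), Xaf1 (0.96), Trim26 (0.96) and Zc3hav1 (0.96). Bst2 and Xaf1 were on the antiviral list. Bst2, also known as tetherin, holds budding virus particles at the cell surface, and Zc3hav1 binds viral RNA. Of the 34 antiviral genes, 28 were among the 100 of 11136 genes most like the class I mean. Both means were low on the 4 Pou3f1 knockdown arrays, and the lists were chosen with earlier results of these data known. A high rank is therefore no test of whether the class I genes follow the antiviral ones. These values are a description of these arrays.

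The rest of the pathway was read through lists of genes named by their function. The constitutive subunits that the immunoproteasome subunits replace had smaller differences in Pou3f1 knockdown relative to the control: -0.13 for Psmb5, -0.08 for Psmb6 and 0.00 for Psmb7. Psmb7 read 7349, 7452, 7176 and 6744 in Pou3f1 knockdown, against 6923, 7348, 7310 and 7178 in the control, and the groups overlapped. Of the 7 tested genes of the constitutive proteasome and its regulators, none passed limma's test with 16 arrays in any of the 6 comparisons (2 at an unadjusted p under 0.05 in Pou3f1 knockdown against the control). Of all tested probe sets 0.74% were called lower in that comparison, so 0 of 7 is near the background. Psme1, a subunit of the interferon-inducible proteasome activator, was lower by 0.10 than in the control (adjusted p = 0.491) and, with 15 arrays, lower by 0.19 than in Etv5 knockdown (0.0249). Psme2 had no single-gene probe set in the annotation used. Of 5 tested loading and trimming genes, none passed in Pou3f1 knockdown against the control with 16 or 15 arrays. That is near the background (0.74% and 5.27% called lower), and 0 had an unadjusted p under 0.05 with 16. The differences were -0.07 for Calr and -0.02 for Canx, both chaperones of the heavy chain, -0.01 for Pdia3, a disulphide isomerase of the loading complex, and -0.03 for Erap1, which trims peptides. With 15 arrays Erap1 was higher in Etv5 knockdown than in the control by 0.19 (0.028) and lower in Pou3f1 than in Etv5 knockdown by 0.23 (0.0172), and Calr was lower in Bcl6b knockdown than in the control by 0.13 (0.00871).

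Nlrc5, the main transcriptional activator of class I genes, read 97.4, 90.7, 86.2 and 103 in Pou3f1 knockdown. It read 260, 182, 176 and 151 in Bcl6b knockdown and 121, 138, 106 and 160 in Etv5 knockdown, against 131, 125, 132 and 124 in the control. The Pou3f1 knockdown arrays were below all others, and every Bcl6b knockdown array was above every control array. Nlrc5 was lower in Pou3f1 than in Bcl6b knockdown by 0.99 (adjusted p = 0.00188 with 16 arrays and 2.6e-04 with 15). Relative to the control it differed by -0.44 in Pou3f1 knockdown (0.25, and 0.0162 with 15 arrays) and by 0.55 in Bcl6b knockdown (0.0532, and 0.40 with 0.0309 for 15 arrays). Irf1, a transcription factor of class I promoters, read 1940, 1767, 1699 and 1655 in Pou3f1 knockdown, against 2152, 1971, 2154 and 2205 in Etv5 knockdown, without overlap (-0.27, 0.0425). It did not pass against the control (-0.12). Of 20 tested regulators and interferon signalling genes, none passed limma's test in Pou3f1 knockdown against the control with 16 arrays (4 at an unadjusted p under 0.05, background 0.74% called lower). With 15 arrays 5 of the 20 fell, where 5.27% of all tested probe sets were called lower. The largest differences were those of Nlrc5 (-0.44), Stat2 (-0.40, adjusted p = 0.00465) and Irf9 (-0.29, 0.0293), the last 2 being parts of the type I interferon signalling complex.

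Class II presentation, which belongs to professional antigen-presenting cells, was largely dim. Of 9 class II pathway genes with a probe set, 2 were tested. Cd74, Ciita, H2-Aa, H2-Ab1 and H2-Eb1 read 3.08 to 8.13 on all arrays, below the array medians of 15.6 to 17.1.

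Markers of other cells in the cultures were set beside the class I differences. Of 12 macrophage and leukocyte markers 10 were tested, while Adgre1 and Itgam were dim. Their summed intensity was 1150 to 1327 in Pou3f1 knockdown, 1138 to 1891 in Bcl6b knockdown and 1115 to 1184 in Etv5 knockdown, against 1094 to 1235 in the control. None of the 10 passed in Pou3f1 knockdown against the control with either set of arrays (background 0.74% and 5.27% called lower). The mean of the 10 on the log2 scale relative to the control mean was -0.26 to -0.14 in Etv5 knockdown, below all control arrays (-0.09 to 0.13). It overlapped the control in Pou3f1 knockdown (-0.18 to 0.14) and in Bcl6b knockdown (-0.14 to 0.17, and -0.14 to 0.02 without replicate 1). In Etv5 knockdown Mrc1, a macrophage receptor, fell by 1.31 (adjusted p = 0.0044), the one of these 10 that passed with 16 arrays. Lyz2 differed by -1.57 (0.128, and 0.019 with 15 arrays). The rest ran from -0.05 (Csf1r) to 0.30 (Ptprc), and none of them passed with either set of arrays. Of 9 endothelial markers 2 were tested, and both fell in Etv5 knockdown (Plvap by 1.30 and Ramp2 by 1.09, 0.00347 and 0.00143). The 15 fibroblast and feeder markers summed to 195730 to 201990 in Pou3f1 knockdown, against 193430 to 195160 in the control. A sum of intensities gives most weight to the brightest probe sets. The mean of these 15 on the log2 scale overlapped the control, at -0.059 to 0.014 against -0.016 to 0.008. Vim, an intermediate filament gene of mesenchymal cells, was the one that passed with 16 arrays (0.35, adjusted p = 0.00175). With 15 arrays Col1a1, Fn1 and Sparc were also lower and Postn higher. In Etv5 knockdown Vim was higher than in the control as well, by 0.33 (limma, adjusted p = 0.00318), and so was Postn with 15 arrays, by 0.19 (8.0e-04). For the labelled cell type, 11 of 12 germ cell markers with a probe set were tested. In Pou3f1 knockdown they summed to 45040 to 48115, against 44762 to 45681 in the control. Ret, the GDNF receptor kinase, was higher there by 0.38 (0.00604) and, with 15 arrays, Zbtb16, a transcription factor of undifferentiated spermatogonia, by 0.14 (0.0413). These rises were not particular to Pou3f1 knockdown. Ret was also higher than in the control in Bcl6b knockdown, by 0.35 (limma, adjusted p = 0.00685), though not in Etv5 knockdown (-0.01). With 15 arrays Zbtb16 was higher in Etv5 knockdown, by 0.25 (0.00141), and was not called in Bcl6b knockdown (0.11). The mean of the 11 germ cell markers on the log2 scale relative to the control mean was 0.04 to 0.16 on the Pou3f1 knockdown arrays, above all control arrays (-0.0083 to 0.0088). Their part in the class I differences was not tested.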

How the data were processed

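RNA of 16 samples was hybridised to Affymetrix mouse genome arrays. The deposited values are linear intensities, 1 per probe set and array, from 1.66 to 71511, as the authors summarised them. Per the submitters' processing notes the tools were Affymetrix Expression Console 1.1, MAS5, GCRMA and Partek 6.4, and which of them gave these values is not stated there. Summarising from 3′ probes can lower or raise a probe set on an array of 3′-biased RNA. Of 45101 probe sets 64 controls were left out. The annotation supplied for the platform gave 34945 of the rest 1 gene, 932 several and 9160 none; no symbol needed an update. The number of arrays limits the precision.

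Values were taken as log2(intensity + 1), with no further normalization. A probe set was tested if at least 4 arrays exceeded their own median, which left 22836 probe sets and 11145 genes by brightest probe set. limma 3.58.1 in R 4.3.3 (lmFit, eBayes with an intensity trend) fitted the 4 groups over 16 arrays with no covariates, p-values were adjusted by Benjamini-Hochberg over all tested probe sets, and a call is an adjusted p under 0.05. The same fit without Bcl6b knockdown replicate 1 is given beside it. The fit was tested on simulated data with independent noise on every array. That simulation held no array like Bcl6b knockdown replicate 1, so it does not speak for the calls that this array decides. Genes were named by rule: all 9 members with their probe sets, up to 4 called genes per other list and comparison (the largest differences) or, with no call, the 2 of lowest p, 12 pathway genes always, the siRNA targets, and the 5 genes most like the class I mean. Genes named outside that rule (Ifit1, Ifit2, Stat2, Irf9 and Psmb7's per-array values among them) were chosen after their values were seen. The members, lists and motifs were chosen with earlier results of these data known. The results of another motif searched are not reported here. Replicate numbers of different groups were not used as pairs in the main fit. Tables and figures were made with Python 3.11.15, pandas 2.3.3, scipy 1.17.1 and matplotlib 3.10.9. Alternatives covered normalization, pseudocount (16), filters (none, or a mean log2 value of 5), 1 probe set per gene, array weights, the trend, the groups in the fit, a replicate block and leaving out each array.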

Additional observations from a re-analysis of the deposited data

Results flagged for a closer look

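Among 84 groups of 4 arrays, for the 21 tested member probe sets, 12 had 1 array far from the other 3 by Dixon's ratio. Chance gives such a gap in about 1 of 20 groups. Of the 12, 8 were Bcl6b knockdown replicate 1. That array read 19281 for the brighter B2m probe set (26282 to 26525 on the other 3 of its group) and 12078 for the second (22869 to 23645). Its H2-K1 value was 4323 (6684 to 7056), and the probe set shared by H2-K1 and H2-D1 read 2366 (3492 to 3767). A further 3 H2-D1 probe sets read 4613, 4976 and 151 there, against 6526 to 6848, 6109 to 6331 and 262 to 291. The second Tapbp probe set read 24.8 (728 to 805). The other 4 gaps were in different arrays. Pou3f1 knockdown replicate 2 read 22324 for the second B2m probe set (20708 to 20776), Etv5 knockdown replicate 4 read 342 for Tap1 (275 to 283), Etv5 knockdown replicate 3 read 267 for an H2-D1 probe set (307 to 312), and control replicate 2 read 2286 for another H2-D1 probe set (2030 to 2067).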

How the results depend on the processing

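Counts of class I genes called were small and moved with the processing. Directions were followed for 20 gene differences, each called in at least 1 of the 2 main fits. Of 820 recomputed values 9, all of B2m, turned. The 20 were picked by their calls in these same data, and the alternatives share most of the arrays. A kept direction is therefore no support for them. B2m in Bcl6b knockdown against the control was -0.053 with median centring, -0.033 to 0.12 when 1 array was left out, and 0.103 to 0.133 when a second was left out besides Bcl6b knockdown replicate 1. In Pou3f1 against Bcl6b knockdown it was 0.033 with median centring, -0.14 to 0.0137 when 1 array was left out, and -0.151 to -0.134 with such a second array left out. For Pou3f1 knockdown against the control (2 genes called), 5 were called with array weights or with only the 2 groups in the fit, 1 with no intensity trend or with quantile normalization, and 0 with median centring or without the filter on dim probe sets. Leaving out 1 array gave 0 to 5: 0 without any of Bcl6b knockdown replicate 3, Etv5 knockdown replicates 1 and 3, control replicates 1, 2 and 3 or Pou3f1 knockdown replicates 2, 3 and 4, and 5 without Bcl6b knockdown replicate 1. The weight of Bcl6b knockdown replicate 1 was 0.018 (0.51 to 2.45 for the others), and a fit of Pou3f1 knockdown and control alone holds no Bcl6b knockdown array. Both fits thus nearly or wholly leave that array out and are not independent of the 15-array fit. For Pou3f1 against Etv5 knockdown (2 called), array weights gave 8, the 2 groups alone 6, and leaving out 1 array 1 to 6. For Pou3f1 against Bcl6b knockdown (5 called), 1 probe set per gene, median centring and no filter each gave 3, the 2 groups alone 1, array weights 7, and leaving out 1 array 3 to 8. Array weights gave 2 calls for Etv5 and 1 for Bcl6b knockdown against the control (0 called in each). Leaving out 1 array gave 0 to 0 and 0 to 1 there. When a second array was left out besides Bcl6b knockdown replicate 1, a choice made after seeing the data, the calls were 3 to 7 for Pou3f1 knockdown against the control, 6 to 8 against Etv5 and 5 to 9 against Bcl6b knockdown, 0 to 2 for Etv5 and 0 to 2 for Bcl6b knockdown against the control. Tap1, Tap2 and Psmb10 were called against the control in all 15 of these fits, Tapbp in 14 and H2-K1 in 11. With the replicate block, Pou3f1 knockdown against the control had 0 called, against Bcl6b knockdown 4 and against Etv5 knockdown 2, and the other comparisons 0. Deviations of same-numbered arrays from their group means had correlations from -0.47 to 0.23 (median 0.02, over 24 pairs). For arrays of other numbers these were -0.358 to 0.425 (median -0.007, over 72 pairs). No pairing by number was seen, but correlations over all tested probe sets cannot exclude a weak pairing or one of some genes only. Except for the fits with fewer arrays, the cause of these changes was not tested. Bcl6b against Etv5 knockdown kept 0 calls in all 41 alternatives.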
